A study of Saccharomyces cerevisiae with 2 samples.

Results

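The small ribosomal subunit protein (RPS) genes of the budding yeast Saccharomyces cerevisiae were chosen by symbol, as the protein-coding genes of the R64 annotation named RPS with a number and, for duplicated genes, the letter A or B. The rule found 56 of 6002 nuclear protein-coding genes. They comprised 24 pairs of A and B copies and 8 genes with 1 copy. Lists of DNase I hypersensitive sites (DHS), where chromatin is open to cutting by this enzyme, and of footprints, short protected stretches inside them, were given for a WT strain and for a temperature-sensitive Hsp90 strain with allele G170D, both labelled BY4741. Both cultures were kept at 37 °C in YPD, a rich medium, for 6 h, starting from an OD of 0.25 (WT) or 0.37 (G170D) and ending at 0.65 to 0.7. The starting density differed between the strains and its part cannot be told apart from the allele. There was 1 library per strain, so no difference between strains has a replicate check and no test was made.

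The small subunit of the ribosome binds the messenger RNA and carries the decoding centre, where codon and transfer RNA are matched. It is built from 1 ribosomal RNA and a set of proteins that sit in its head or in its body and platform. In budding yeast the genes of these proteins are among the most heavily transcribed by RNA polymerase II, and most carry sites for the general regulatory factor Rap1, which recruits Fhl1 and the coactivator Ifh1. Many exist as A and B copies left from a whole-genome duplication, and many contain an intron near the coding start. Hsp90 is a chaperone encoded by HSC82 and HSP82. Copies of a pair are nearly identical in coding sequence in many cases, so a short read from such a stretch can fit both. The sources used here do not say how such reads were placed, and values inside the coding spans of paired genes are uncertain for that reason.

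The WT list held 3155 DHS over 2183 kb and the G170D list 2875 DHS over 1807 kb, with 45019 and 33585 footprints. The number of reads behind these lists is unknown. Intervals below are exact 95% Clopper-Pearson intervals or follow from the exact binomial distribution, cover counting error only and treat items as independent. For each gene, 3 windows were read: the 500 bp upstream of the coding start, the span from coding start to coding end with any intron (the body), and the 500 bp downstream of the coding end.

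Most RPS genes lay in or next to a DHS, and the DHS was more often in the body or after the gene than before it. In WT, 43 of the 56 genes had DHS in the body, 42 in the downstream window and 32 in the upstream window. In G170D these numbers were 40, 36 and 25. All genes had the same order of windows at lower shares, 44.9%, 43.2% and 31.6% in WT and 40.2%, 39.3% and 29.6% in G170D. Over the 3 windows together, 40 genes had more DHS length in WT, 12 had more in G170D and 4 had the same length in both. Among all genes 44.2% had more in WT and 21.1% more in G170D. RPS16A, RPS28A and RPS29A had no DHS in any window in either strain. Their nearest DHS lay 1618, 1090 and 2766 bp from the coding span in WT and 1543, 1066 and 3002 bp away in G170D.

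**Figure D1:**
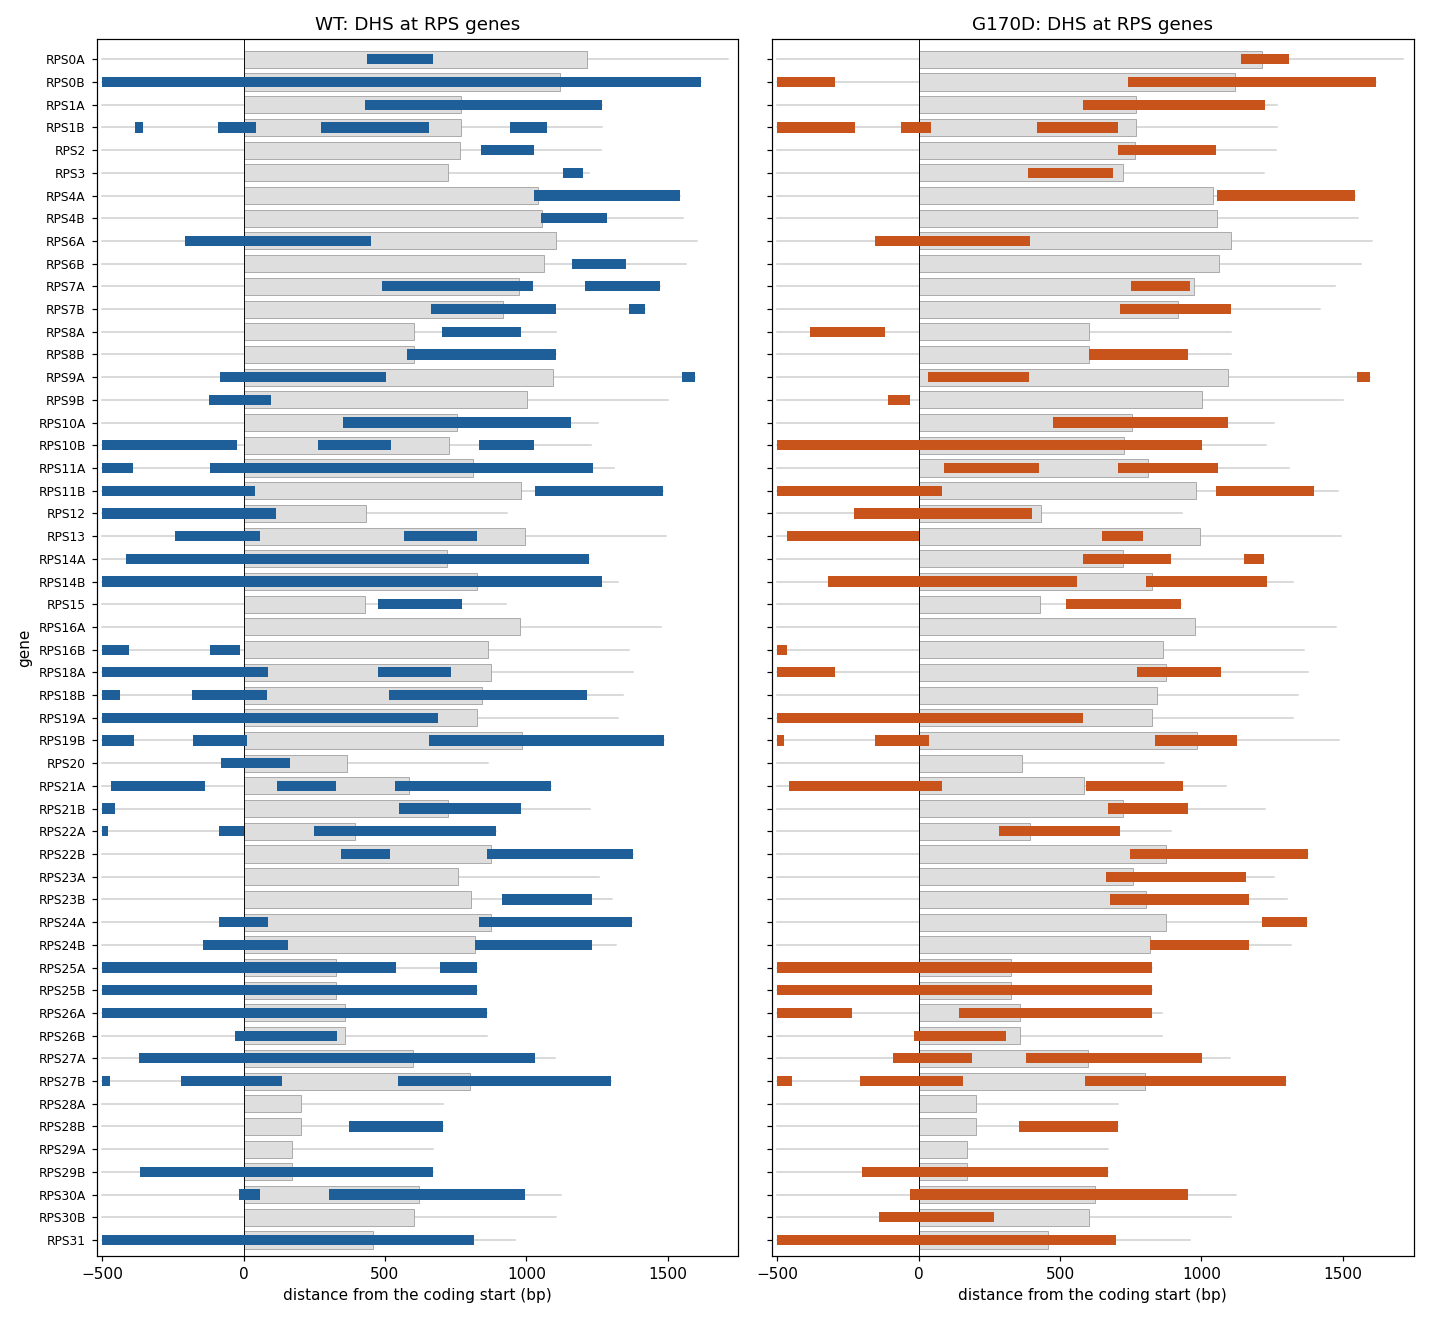
Map of DHS at 53 of the 56 RPS genes in WT (left, blue) and G170D (right, orange), drawn from 500 bp before the coding start to 500 bp after the coding end; the x axis is the distance from the coding start in bp, grey boxes are coding spans and coloured bars are DHS. Of all 56 genes, 43 have a DHS over the body in WT and 32 in the upstream window, against 40 and 25 in G170D.

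Upstream of the coding start, 32 RPS genes had DHS in WT (57.1%, 43.2 to 70.3), where 31.6% of all 6002 genes did. In G170D the number was 25 (44.6%, 31.3 to 58.5), beside 29.6% of all genes. DHS were listed in both strains for 23 RPS genes, in WT only for 9 (16.1%, 7.62 to 28.3), in G170D only for 2 (3.57%, 0.435 to 12.3) and in neither for 22. Among all genes the corresponding shares were 24.6%, 7.05%, 4.98% and 63.4%. The mean DHS length per RPS window was 169 bp in WT, against 124 bp in G170D, and the medians were 81.0 and 0 bp. Over all genes the means were 98.5 and 89.6 bp. More length was covered in WT at 21 RPS genes and in G170D at 8, beside 18.7% and 11.2% of all genes. The RPS windows thus held 0.733 times as much DHS length in G170D as in WT, while the windows of all genes held 0.909 times as much.

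The largest difference upstream was at RPS14A (III:177500-178220), 1 of 2 genes for a platform protein at the messenger RNA exit. Its window held 7 footprints on 415 bp of DHS in WT, and neither in G170D. The WT DHS was a single region of 2342 bp that ran from the upstream window through the whole body and past the downstream window, and it also covered the small nucleolar RNA genes SNR189, upstream, and SNR65, downstream. In G170D 2 shorter regions, of 309 and 724 bp, lay at the 3' end of the gene and beyond it. The body held 721 bp of DHS in WT, against 139 bp in G170D. Counts without RPS14A, the only RPS gene with a non-coding RNA gene in its upstream window, gave a ratio of upstream DHS length of 0.767.

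Genes of other body and platform proteins differed in both directions. RPS0B, whose protein is needed for maturation of the small subunit RNA, held 500 bp upstream in WT and 206 bp in G170D, with 10 and 4 footprints. At this gene WT had 1 region of 4037 bp over the whole coding span, and G170D had 2 regions of 762 and 1822 bp with a gap over the coding start. RPS27A, which encodes a zinc-binding protein of the platform, held 369 and 92 bp, and RPS26A, whose protein contacts messenger RNA on its way out of the ribosome, held 500 and 266 bp. RPS11A held 228 bp in WT and none in G170D. More length was listed in G170D at RPS8A, with 0 bp in WT, against 266 bp in G170D, and at RPS13, with 242 and 464 bp. RPS1B held 122 and 337 bp and RPS21A, named after its values were seen, 333 and 458 bp.

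Other genes of this group had DHS upstream in 1 strain only, over shorter lengths. In WT only, RPS24B held 142 bp, RPS22A 110 bp, RPS24A 87 bp, RPS9A 82 bp and RPS21B 44 bp. RPS30B held 140 bp in G170D only, in a region that also covered 266 bp of its body, and had no DHS in any window in WT. At RPS9A the WT region ran from the upstream window into the body, where a G170D region was also listed. RPS11B, the other copy of RPS11A, had its whole 500 bp covered in both strains.

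Among the 22 genes of head proteins, 12 had upstream DHS in WT and 10 in G170D. RPS25A and RPS25B, which encode a head protein used in initiation at some viral messenger RNAs, RPS19A, and RPS31, whose product is made as a fusion with ubiquitin, had the whole window covered in both strains. The region over RPS25A ranked at place 7 by the authors' score in each list, spanned VII:533921-535853 in WT and VII:532720-535853 in G170D, and was the highest-ranking DHS at any RPS gene. RPS25B lay within a region of 6070 bp in WT and of 5954 bp in G170D. In each strain this region also covered 3 small nucleolar RNA genes and 2 tRNA genes. RPS18A, whose protein lies near the transfer RNAs, held 500 bp in WT, against 206 bp in G170D, and RPS18B held 248 bp in WT and none in G170D. RPS12, a gene for a protein of the beak of the head, held 500 and 230 bp. At RPS20 the window held 80 bp in WT only. No head gene had upstream DHS in G170D only, and RPS10B held more in G170D, with 476 bp in WT, against 500 bp in G170D.

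**Figure D2:**
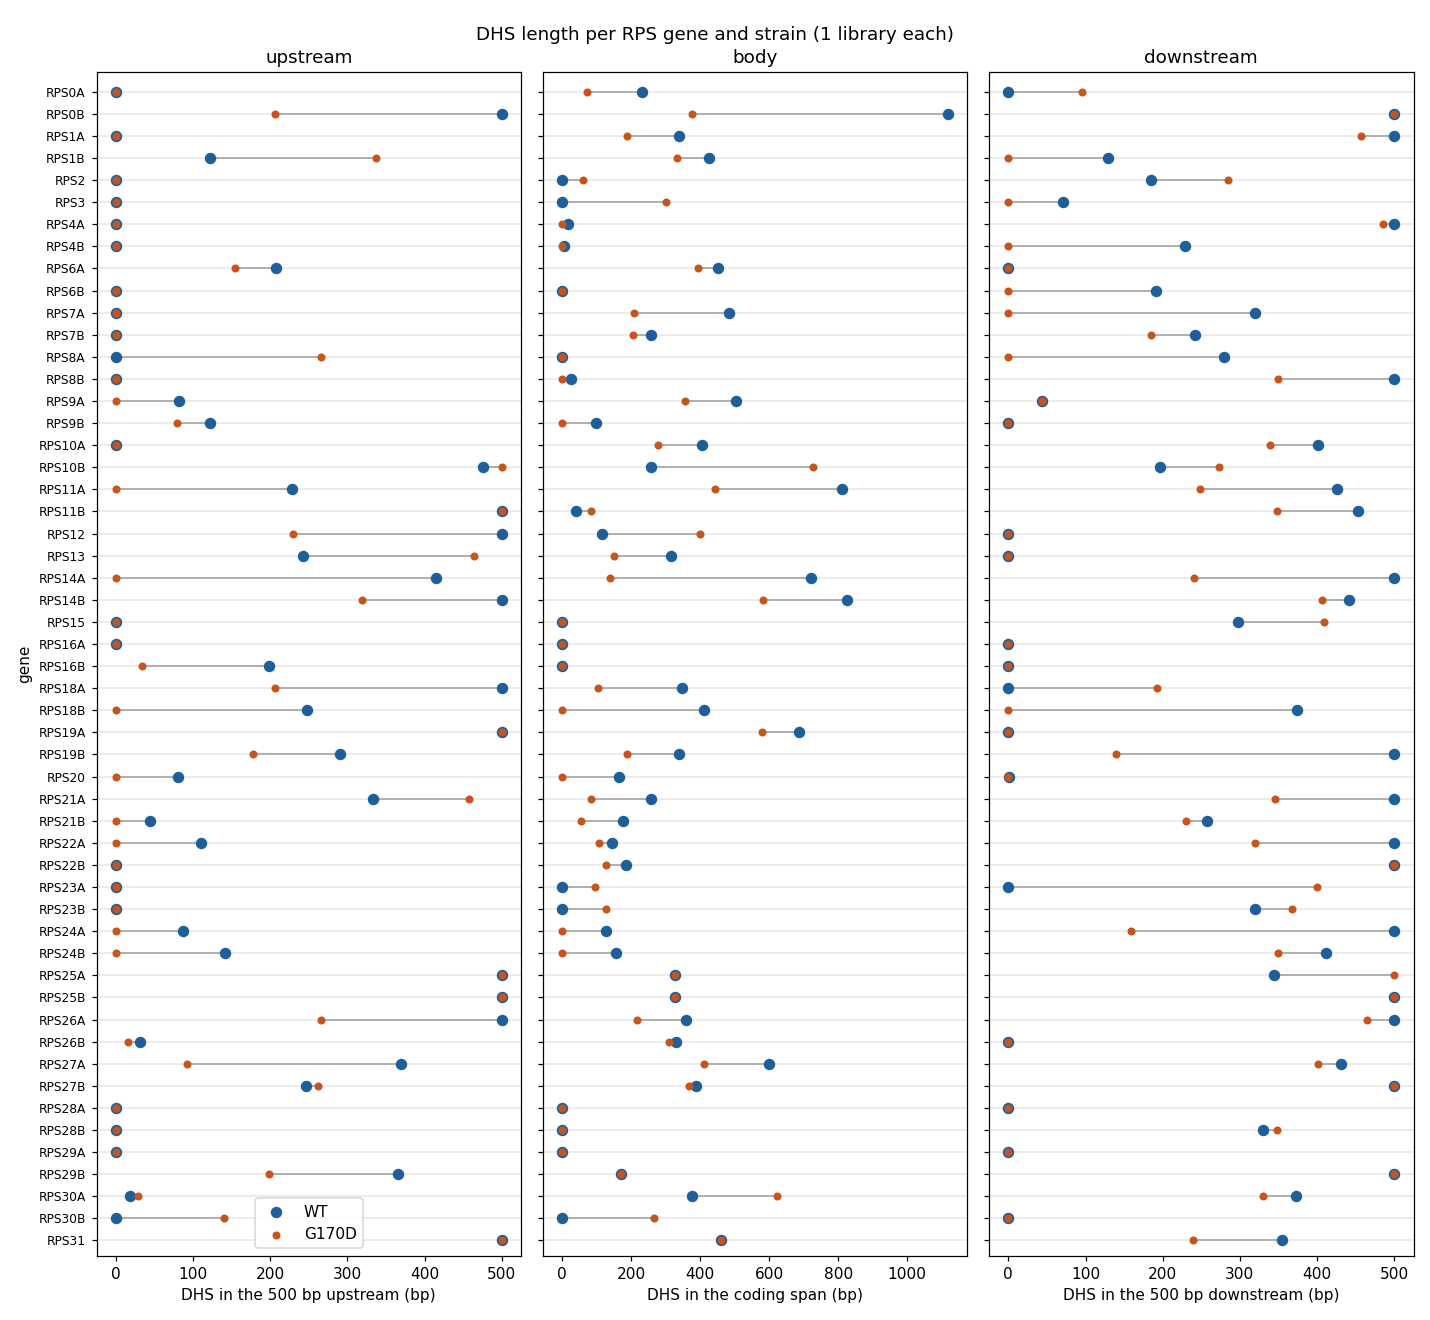
DHS length in bp on the x axes in the upstream window, the coding span and the downstream window of 53 of the 56 RPS genes, with WT as large blue points, G170D as small orange points and a grey line joining the strains (1 library each). RPS14A lies at 415 bp upstream in WT and 0 bp in G170D, while RPS8A lies at 0 and 266 bp.

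DHS covered 36.5% of the summed body length of RPS genes in WT and 26.9% in G170D, beside 12.8% and 9.94% for all genes. RPS spans were shorter, with a median of 766.5 bp against 1200 bp, and coverage in all genes was higher near the ends of the span than inside it. At least 1 bp of DHS lay in the body of 43 RPS genes in WT (76.8%) and 40 in G170D (71.4%), beside 44.9% and 40.2% of all genes. The body DHS was listed in WT only at 8 genes and in G170D only at 5, beside 9.68% and 5% of all genes. WT had more body length at 35 RPS genes and G170D at 9, beside 33.1% and 13.7% of all genes. The ratio of body length, G170D to WT, was 0.736 for RPS genes and 0.775 for all genes, and was 0.653 for the body and platform genes and 0.897 for the head genes. The head value is set by few genes. WT had more body length at 9 head genes and G170D at 3, RPS10B, RPS3 and RPS12, by 471, 300 and 284 bp. Among body and platform genes these counts were 26 and 6.

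The whole span was covered in WT at 10 genes and in G170D at 6, beside 4.35% and 3.15% of all genes. By the sum of both strains RPS0B had the most body DHS, 1118 bp in WT, against 376 bp in G170D, with 17 and 5 footprints. It was followed by RPS14B, with 825 and 582 bp, by RPS19A, with 686 and 580 bp, by RPS11A, with 810 and 444 bp, and by RPS27A, with 600 and 410 bp. All 5 held more in WT. Within WT alone RPS14A, with 721 bp, stood above RPS19A and RPS27A, and within G170D RPS10B and RPS30A stood above all 5. The reverse was seen at RPS10B, where the body held 257 bp in WT and all 728 bp in G170D, at RPS3, a gene for a protein at the messenger RNA entry, with 0 and 300 bp, at RPS12, with 116 and 400 bp, and at RPS30A, with 377 and 622 bp. These 4 genes were named after their values were seen. Of the 8 genes with no body DHS in either strain, beside 50.1% of all genes, 3 were those without any DHS named above. The others were RPS6B, RPS8A, RPS15, RPS16B and RPS28B, each with a DHS within 500 bp of the span in WT.

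The window after the coding end was covered most. DHS filled 53.8% of it in WT and 42.4% in G170D, beside 29.1% and 25.2% for all genes. Genes of large subunit proteins had 48.3% and 35.8%. Of the RPS genes, 42 had a DHS there in WT (75%, 61.6 to 85.6) and 36 in G170D (64.3%, 50.4 to 76.6), beside 43.2% and 39.3% of all genes. It was listed in WT only at 9 genes, in G170D only at 3 and in neither at 11, beside 8.68%, 4.73% and 52.1% of all genes. RPS0B, RPS22B, RPS25B, RPS27B and RPS29B had all 500 bp covered in both strains. RPS7A held 319 bp in WT and none in G170D, RPS18B 374 bp and none, and RPS8A 280 bp and none. In the other direction RPS23A, a gene for a protein of the decoding centre, held none in WT and 400 bp in G170D, RPS18A none and 193 bp, and RPS0A none and 95 bp. These 6 genes were chosen after their values were seen.

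Around the coding start, coverage of RPS genes in WT reached 48.9% in the last 100 bp before the start, and in G170D it was 31.6% there. All genes had 19.7% and 17.7%. In WT 30 RPS genes had DHS in those 100 bp and in G170D 20, beside 22.4% and 20.5% of all genes. The count was 12 in WT only and 2 in G170D only, beside 6.25% and 4.33% of all genes. Further upstream, 200 to 300 bp before the start, coverage was 28.0% and 21.3%. Around the coding end, coverage in WT was highest 100 to 200 bp after the end, at 64.8%, and in G170D in the first 100 bp after the end, at 55.4%.

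The last 100 bp of the coding span stood out by having more coverage in G170D, 49.1%, than in WT, 41.5%. G170D held more there at 11 genes (among them RPS0A, RPS1B, RPS2, RPS3, RPS10B, RPS12, RPS18A, RPS22B, RPS23A and RPS23B) and WT at 10, beside 5.3% and 12.7% of all genes. The first 100 bp after the end were covered over 55.4% in G170D and 54.1% in WT. In all genes the last 100 bp of the span were covered over 21.5% in G170D and 26.0% in WT, and in the large subunit protein (RPL) genes over 34.8% and 44.4%. This place was singled out after its values were seen. The 48 paired genes had 49.2% in G170D and 44.2% in WT, with more in G170D at 8 genes and more in WT at 10. The 8 single-copy genes had 49.0% and 25%, a difference set by 3 genes, all with more in G170D.

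**Figure D3:**
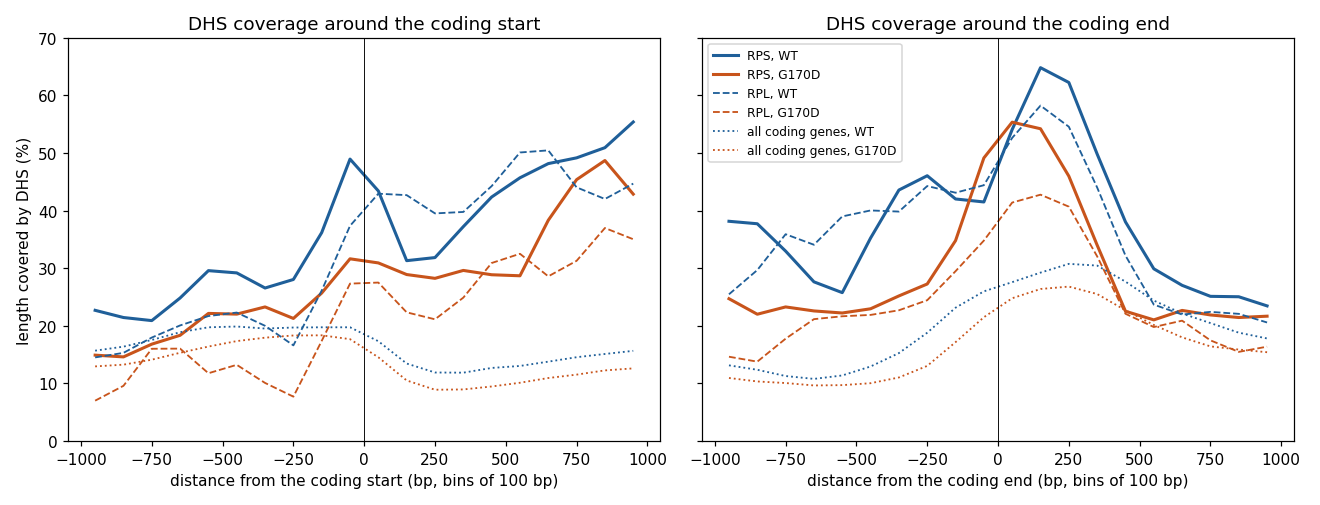
Share of length covered by DHS in bins of 100 bp from 1000 bp before to 1000 bp after the coding start (left) and the coding end (right), for 56 RPS genes (solid), 76 RPL genes (dashed) and 6002 coding genes (dotted), WT in blue and G170D in orange. RPS coverage in WT peaks at 64.8% after the coding end, and the RPS lines of the strains cross near the coding end: in the last 100 bp of the span G170D has 49.1% and WT 41.5%.

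Footprints were also fewer in G170D. The 3 windows of the RPS genes held 722 footprints in WT and 472 in G170D when each gene was counted on its own, a ratio of 0.654 (0.581 to 0.735). The downstream windows of RPS14B and RPS22A, which converge, overlap, and each also reaches into the body of the other gene. Length and footprints there enter for both genes, in the body as well as the downstream counts. The ratio was 0.754 (0.597 to 0.951) upstream, with 175 and 132 footprints, 0.557 (0.447 to 0.692) in the body, with 237 and 132, and 0.671 (0.560 to 0.802) downstream, with 310 and 208. For all genes it was 0.822, 0.691 and 0.757. When the same number of top-scored DHS and footprints was kept in both strains, the RPS ratios were 1.08 upstream, 0.936 in the body and 0.945 downstream. This setting cut the WT footprints from 45019 to 33585 and left the G170D list whole, so ratios could only rise. The ratio over all genes under it is not given here. The direction upstream turned, and whether this is particular to RPS genes was not tested.

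Within the 24.4 kb of RPS windows that DHS of both strains covered, WT had 20.2 and G170D 16.7 footprints per kb, a ratio of 0.827 (0.724 to 0.945). For all genes the ratio in shared length was 0.826 (0.812 to 0.840). In this length 254 of 492 WT footprints (51.6%, 47.1 to 56.1) overlapped a G170D footprint, and 259 of 407 G170D footprints (63.6%, 58.8 to 68.3) overlapped a WT footprint. The shares over all genes were 59.4% and 70.9%. With the most negative of the authors' scores taken as strongest, few RPS footprints ranked in the strongest decile of their list. Upstream these were 5 of 175 in WT (2.86%, 0.934 to 6.54) and 3 of 132 in G170D (2.27%, 0.471 to 6.50). In the body they were 3 of 237 and 1 of 132, and downstream 11 of 310 and 4 of 208. The shares in the windows of all genes are not given here. The strongest upstream footprint in both strains lay at RPS25A, at VII:534926-534953 in WT and VII:534914-534924 in G170D.

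The number of footprints varied from gene to gene. Upstream of RPS25A both strains had 17 footprints, and upstream of RPS31 there were 13 in WT and 14 in G170D. At RPS10B there were 9 in WT and 14 in G170D, and at RPS21A, whose protein binds next to Rps0, 6 and 14. At RPS19A, with 500 bp of DHS in both strains, there were 12 and 8, and at RPS12 10 and 2. Of the 5 genes with the whole window covered in both strains, RPS19A and RPS25B, with 9 and 6, had fewer footprints in G170D, RPS31 and RPS11B, with 5 and 6, had more, and RPS25A had the same number.

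**Figure D4:**
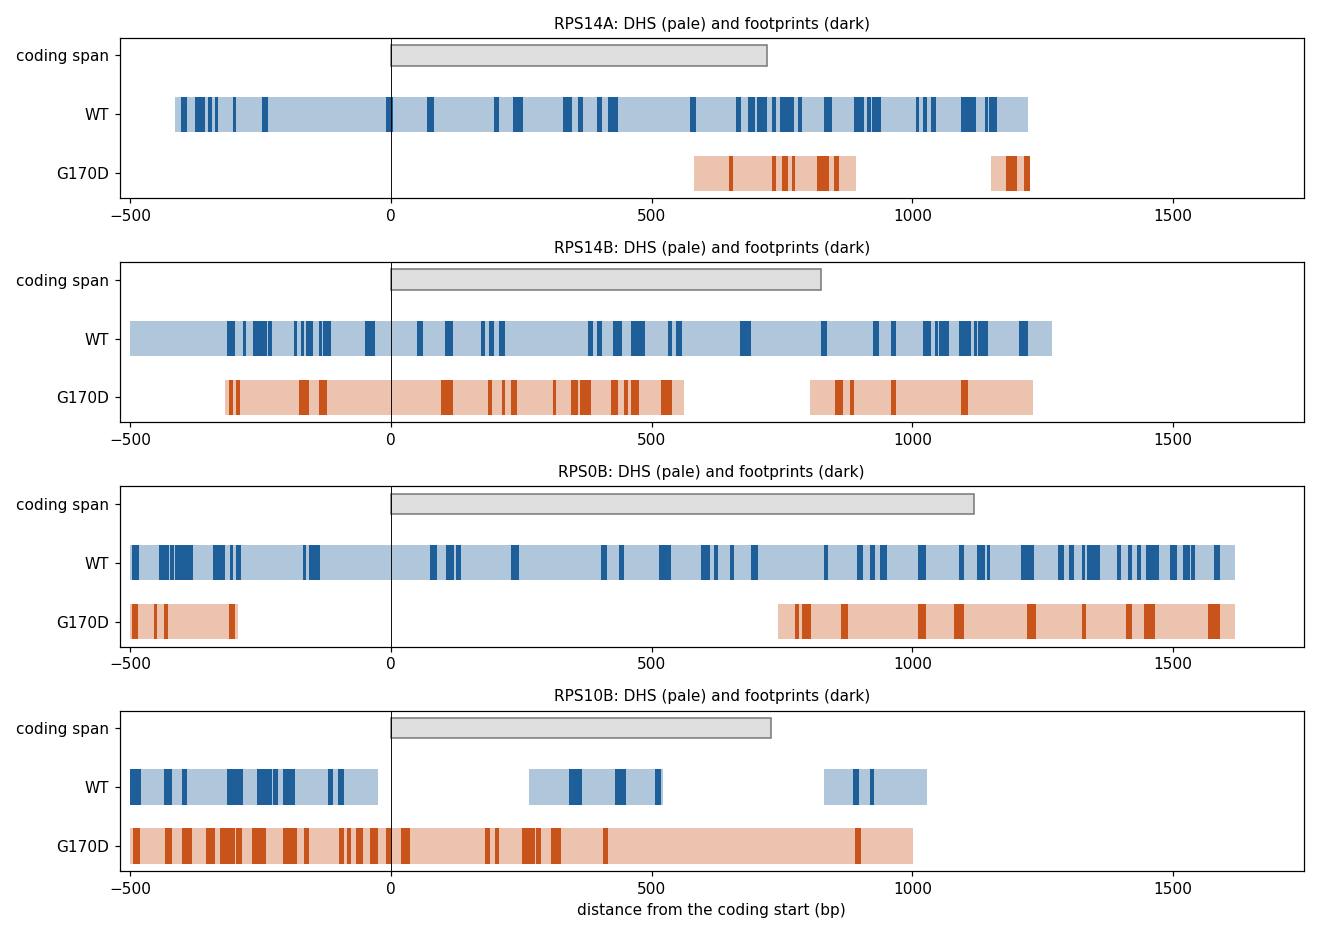
DHS (pale bars) and footprints (dark bars) in WT and G170D at RPS14A, RPS14B, RPS0B and RPS10B; the x axis is the distance from the coding start in bp and grey boxes are coding spans. RPS14A has 415 bp of DHS upstream in WT and none in G170D, and RPS10B has its whole body covered in G170D, 728 bp, against 257 bp in WT.

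A and B copies often differed in upstream DHS within a strain, although their proteins are the same or nearly so. In WT both copies of 10 of the 24 pairs had DHS, 3 pairs had it at A only, 5 at B only and 6 at neither. In G170D both copies of 5 pairs had DHS, with 4 pairs at A only, 8 at B only and 7 at neither. Pairs with DHS at 1 copy only therefore numbered 8 in WT and 12 in G170D. The mean upstream length was 160 bp for A and 179 bp for B in WT, and 103 and 136 bp in G170D. A was longer in 8 pairs and B in 9 in WT, and A in 6 and B in 10 in G170D, so neither letter was regularly ahead. The copies differed by more than 200 bp in 9 pairs in WT and 10 in G170D. Across the 24 pairs the lengths at A and at B had a Pearson's r of 0.327 in WT and 0.0494 in G170D, and a Spearman's rho of 0.369 and -0.0205. Pairs share a library, and these values are descriptions.

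The pairs farthest apart kept their order in both strains. RPS0A had no upstream DHS in either strain, against 500 and 206 bp at RPS0B. RPS10A had none, against 476 and 500 bp at RPS10B, and RPS29A had none, against 366 and 199 bp at RPS29B. RPS16A had none, against 198 and 34 bp at RPS16B, and RPS1A had none, against the 122 and 337 bp of RPS1B. RPS6A held 207 and 155 bp and RPS6B none, where Rps6 is the small subunit protein whose phosphorylation follows nutrient signalling. RPS26A held 500 and 266 bp, against 31 and 16 bp at RPS26B. Over the upstream window the same copy was longer in both strains in 13 pairs and the other copy in 2.

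In 2 pairs the order turned between strains. RPS27A held 369 bp and RPS27B 247 bp in WT, and in G170D they held 92 and 262 bp. RPS30A held 18 bp and RPS30B none in WT, against 29 and 140 bp in G170D. RPS14A and RPS14B, close in WT with 415 and 500 bp, stood at 0 and 319 bp in G170D. In yeast the Rps14 protein is known to repress RPS14B through its own pre-messenger RNA. RPS11A and RPS11B held 228 and 500 bp in WT and 0 and 500 bp in G170D. For RPS25 both copies were covered over 500 bp in both strains, and for RPS4, RPS7, RPS23 and RPS28, among others, neither copy had upstream DHS in either strain.

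**Figure D5:**
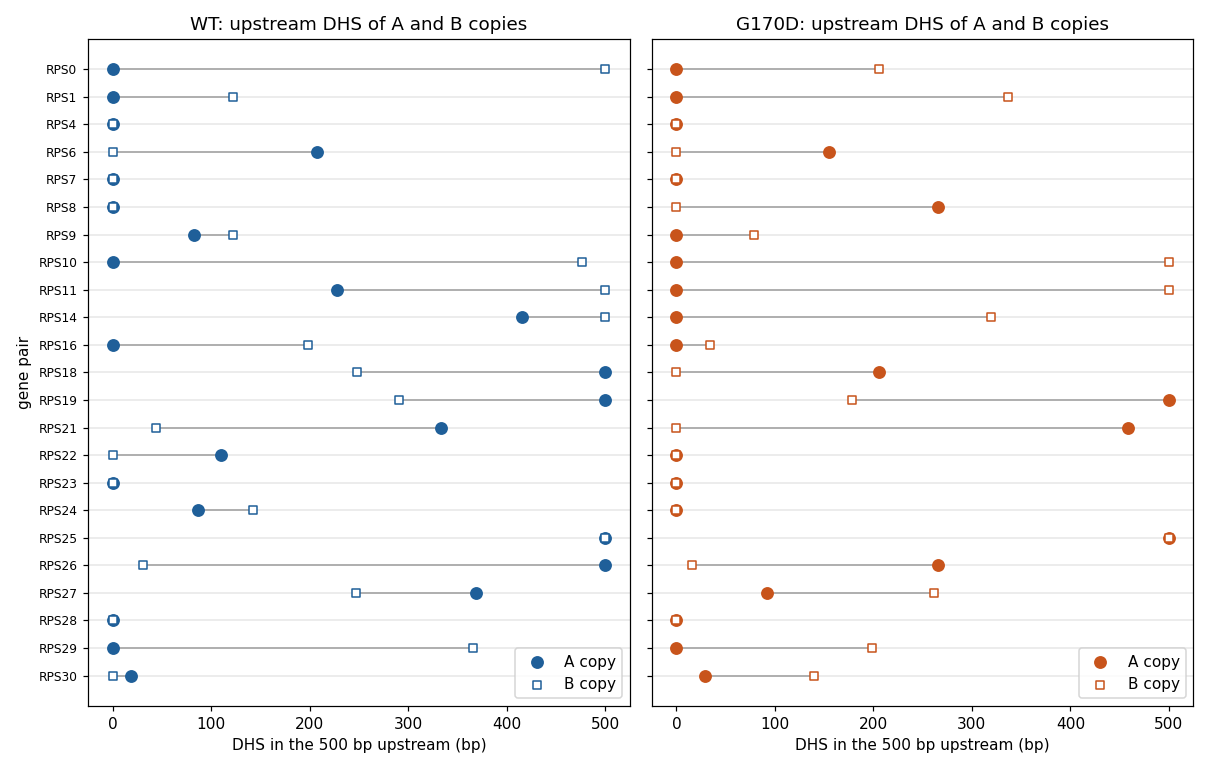
Upstream DHS length in bp (x axis) of the A copy (filled circles) and B copy (open squares) of 23 of the 24 RPS gene pairs in WT (left) and G170D (right), with a line joining the copies of a pair. RPS10B lies at 476 bp in WT, against 500 bp in G170D with RPS10A at 0 bp in both, and 8 pairs in WT and 12 in G170D have DHS at 1 copy only.

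In the body, both copies of 17 pairs had DHS in WT and of 15 in G170D, and 4 pairs in each strain had it at 1 copy only. Both copies were covered over a shorter length in G170D than in WT in 14 pairs, and over a longer length in 2, RPS23 and RPS30. Downstream, both copies of 13 pairs had DHS in WT and of 10 in G170D, and 10 and 12 pairs had it at 1 copy only. RPS28B held 330 and 348 bp downstream and RPS28A none in either strain.

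Of the 8 single-copy genes, 4 had upstream DHS in WT (RPS12, RPS13, RPS20 and RPS31) and 3 in G170D, and RPS2, RPS3 and RPS15 were among those with none in either. Their bodies were covered over 26.0% of the length in WT and 30.3% in G170D, while those of paired genes were covered over 38.0% and 26.4%. With 8 genes the single-copy values are set by few regions. A DHS began or ended within 25 bp of the coding end at 6 of 48 paired genes in each strain (12.5%, 4.73 to 25.2), beside 4% of all genes in WT and 4.5% in G170D, and at none of the 8 single-copy genes (0 to 36.9%). The share at RPL genes was 11.8% in WT and 7.89% in G170D. At the coding start it was 5 of 48 paired RPS genes in WT (10.4%, 3.47 to 22.7) and 1 in G170D (2.08%). All genes had 3.07% and 2.77% there, and RPL genes 5.26% and 3.95%.

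The DHS that reached RPS windows numbered 82 in WT and 66 in G170D. Of these, 23 in WT (28.0%) and 6 in G170D (9.09%) overlapped no DHS of the other strain. In the whole lists these shares were 28.3% and 17.7%, so the WT share at RPS genes was that of the list. Their median widths were 371.5 and 398.5 bp, beside 375.0 and 426.0 bp in the whole lists. By the authors' score 16 of the WT regions (19.5%) and 17 of the G170D regions (25.8%) ranked in the top 25% of their list. RPS18B was reached by 3 of the WT regions without counterpart, of 702, 268 and 254 bp, and in G170D its nearest DHS lay 2374 bp away.

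Upstream, 93.6% of the DHS length at RPS genes in WT and 90.0% in G170D was intergenic, near the 91.8% of the window length that was. The intergenic part was covered over 34.5% in WT and 24.3% in G170D, and the part over a coding neighbour over 26.1% and 30.2%. Downstream, 79.7% and 84.5% of the DHS length was intergenic, where 72.4% of the window was. The intergenic part downstream was covered over 59.2% in WT and 49.4% in G170D, beside 34.0% and 30.4% for all genes. A protein-coding neighbour reached into 15 of the 56 upstream windows and 40 of the downstream windows.

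The 76 genes of large subunit proteins, read the same way, had upstream DHS at 39 genes in WT and 32 in G170D, with a mean of 122 and 75.6 bp and a length ratio of 0.618. In the body 71.1% of RPL genes had DHS in WT and 52.6% in G170D, with a length ratio of 0.595. Downstream the shares were 67.1% and 55.3%, with a length ratio of 0.741. RPS genes had 10 upstream windows fully covered in WT and 6 in G170D, and RPL genes 9 and 0, beside 9.8% and 7.53% of all genes. Fully covered downstream windows numbered 14 and 6 for RPS genes and 17 and 6 for RPL genes, beside 905 and 712 of all 6002 genes. No test of the difference between the families was made.

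Genes that act on RPS genes or proteins were described beside them. Of 11 regulators of ribosomal protein genes, 1 had upstream DHS in both strains, 1 in WT only, 1 in G170D only and 8 in neither. The shares of all genes were 24.6%, 7.05%, 4.98% and 63.4%. FHL1 held 500 bp in both strains. SFP1, a transcription factor that links nutrients to ribosomal protein genes, held 487 bp in WT and none in G170D, and IFH1 held none in WT and 500 bp in G170D. RAP1 had no upstream DHS in either strain. Of 16 assembly factors of the small subunit, 3 had upstream DHS in both strains, 2 in WT only, 2 in G170D only and 9 in neither, beside the same shares of all genes. PNO1 held 500 bp in both, NOB1, the nuclease that makes the final cut of the small subunit RNA, held 280 bp in WT, against 197 bp in G170D, and TSR4 held 453 and 446 bp. The mean upstream length of the assembly factors was 81.1 bp in WT, against 82.9 bp in G170D, and that of the regulators 89.7 and 90.9 bp. For all genes it was 98.5 and 89.6 bp. With so few genes in each list these values are descriptions.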

How the data were processed

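DNase I cleavage was sequenced in 1 WT and 1 G170D library. Per the submitters' processing notes, the tools were Bowtie 0.12.8 and FastQC and the build sacCer3. The authors deposited 1 list of DHS and 1 list of footprints per library, with a score for every region. The sources used here state neither how the score was formed nor which caller gave the DHS. Scores were used only to rank regions within a list, taking the highest DHS score and the most negative footprint score as strongest. On fragment size the labels are ambiguous, naming short fragments and sizes over 650 bp. Coordinates are counted from 1. Genes came from the RefSeq R64 table, with the strand read from the systematic name. Covered length and footprint midpoints were counted per window with pandas 2.3.3, numpy 2.4.6 and scipy 1.17.1 under Python 3.11.15, and figures drawn with matplotlib 3.10.9. A DHS needed at least 1 bp in a window. The counting was tested on simulated data. Genes named are those with the 10 largest upstream differences, upstream DHS in 1 strain, the most length in a window, and pairs whose copies differ, except where a later choice is stated. Members and lists were chosen with earlier results of these data known. Promoter sequences were not used here.
Values of 3 member genes are not reported here by name; they stay in the counts and sums.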

Additional observations from a re-analysis of the deposited data

How the results depend on the processing

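The ratio of upstream DHS length, G170D to WT, was 0.733 and stayed below 1 in every alternative tried: 0.694 with windows of 300 bp, 0.705 with windows ended at the nearest protein-coding gene, 0.760 with lists of the same number (the top-scored DHS and footprints, as many in WT as in G170D), 0.783 with the upper 75% of DHS by score and 0.767 without RPS14A. The body ratio was 0.765, 0.695 and 0.763 in the last 3 of these, and the downstream ratio 0.859, 0.835 and 0.814 with windows of 300 bp, windows ended at the nearest gene and the upper 75% by score. Genes with upstream DHS in G170D only numbered 5 with the upper 75%. With lists of the same number the footprint ratios were 1.08 upstream, which reversed the direction, 0.936 in the body and 0.945 downstream. That setting removed regions from the WT lists only, so every ratio under it could only rise. With the full lists the ratio over all windows was 0.654 by count and 0.827 per kb of shared length. The cause of these shifts was not tested. Of 72 comparisons of summary values with an alternative, 56 lay within the limits set. RPS21B had no upstream DHS with windows of 300 bp or at least 50 bp of DHS, and RPS24A none with lists of the same number or the upper 75% by score. The planned comparison of promoter motifs was not run, since no sequence was used here. No paired analysis was possible because each strain has 1 library. Depth is unknown, so a DHS listed in 1 strain only cannot be told apart from one just below the calling threshold in the other.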
